A study of Mus musculus with 12 samples.

Results

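Retained introns with a splice site that the gene annotation does not list were followed in mouse erythroblasts carrying the Sf3b1 K700E mutation. The members are the introns that the deposited table of splicing events types as retained, that lie at 1 chromosome position and for which the table does not find every splice site in the annotation. There were 1359 such introns in 975 named genes among 19323 splicing events, and 87 of them lay outside a named gene. In 1037 of them 1 of the 2 sites was annotated, and in 322 neither was. The remaining 4586 retained introns of the table had both sites annotated.

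The libraries were made from G1E-ER4 cells, an erythroid line without endogenous GATA1 that expresses GATA1 fused to the estrogen receptor ligand domain, so that estradiol switches the factor on, and both genotypes carry the fusion. The K700E substitution was edited into 1 Sf3b1 allele, and each group, Sf3b1 K700E/+ and Sf3b1 +/+, comes from 1 clone. Poly(A) RNA was sequenced in 3 libraries of each genotype after 24 h of estradiol, and the libraries taken at 0 h were not used here. Genotype and clone cannot be told apart. Nothing given with the samples says that the 3 libraries of a genotype were separate cultures, so a p-value covers only how much these libraries vary, which may be technical.

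An intron is removed between a donor at its 5′ end and an acceptor at its 3′ end. SF3B1 is the largest subunit of the SF3b part of the U2 snRNP, which holds the branch point upstream of the acceptor, and the K700E mutant is known for using cryptic acceptors a short distance upstream of the usual ones. A transcript that is spliced at an unannotated site and one that keeps the same stretch are the 2 paths of each event below. A fall in retention thus means a larger share spliced at the unannotated site. Transcripts spliced at annotated sites instead have no reads in the spliced path. Where the stretch includes annotated exon sequence, their reads of that sequence can count toward the retained path. Positions are those of the event table on GRCm39.

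Gene counts totalled 44045337 to 50077827 per K700E/+ library and 38785471 to 40702174 per +/+ library. Counted separately over the paths of the events, the 1359 introns received 426786 to 489183 reads per K700E/+ library and 405812 to 439838 reads per +/+ library. Sf3b1 itself had 37867, 34388 and 31727 counts in the K700E/+ libraries, against 29400, 30240 and 31027 counts in the +/+ libraries. This equals a log2 fold change of 0.01 ± 0.05 (SE, edgeR adjusted p = 0.858), and such counts cannot verify the point mutation. Of 15 erythroid markers, 14 were in the table and all 14 averaged at least 1 CPM (counts scaled to library size), with a summed level of 10647 to 16587 CPM in K700E/+ and 12293 to 16699.6 CPM in +/+ libraries. Gata1, one of them, had 322, 323 and 315 CPM in K700E/+, against 149, 175 and 155 CPM in +/+ libraries, without overlap, and the part of this difference in the results was not tested. As the line lacks endogenous GATA1, these counts may come from the introduced fusion, which gene counts cannot show. The 8 granulocyte and macrophage markers summed to 1.22 to 1.67 CPM in K700E/+, against 9.37 to 26.1 CPM in +/+ libraries, with Elane and S100a8 without a read. The 5 mast cell and basophil markers summed to 0.678 to 1.66 CPM in K700E/+, against 8.26 to 30.2 CPM in +/+ libraries, with Mcpt8 without a read. At least 1 CPM was reached by 3 of the 8 and 1 of the 5. The 5 megakaryocyte markers, of which 2 reached 1 CPM and Gp1bb had no read, summed to 8.70 to 18.3 CPM in K700E/+ and 16 to 27.6 CPM in +/+, and the 4 lymphoid markers to 0 CPM in K700E/+ and 0.0244 to 0.0504 CPM in +/+. The part of these low levels in the results was not tested, and in bulk RNA fewer cells and less RNA per cell cannot be told apart. The libraries numbered 1 stood apart from the others of their genotype, since chi-square over genes, divided by its degrees of freedom, was 23.8 to 35.4 in pairs that hold one and 8.03 and 9.65 in the other pairs.

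Retention was expressed as PSI, the share of the retained path after the reads of each path were divided by its length, so that 1 means no read spliced at the unannotated site. Of the 1359 introns, 1230 reached 10 reads, both paths together, in each library and were tested, at 1090 separate loci. Retention was lower in K700E/+ in 105 introns and higher in 9 (PSI difference beyond 0.10 and adjusted p under 0.05, edgeR quasi-likelihood). These are 8.54% and 0.732% of the tested introns, against 4.13% lower and 2.19% higher among all 18038 events tested. The 4476 tested retained introns with both sites annotated gave 209 lower (4.67%) and 40 higher (0.894%). The median PSI difference was -0.029 for introns with an unannotated site, -0.018 for those with annotated sites and -0.011 for all events. The median +/+ PSI was 0.838, 0.196 and 0.611 in the same order, so the room to rise or fall differed between these sets. The 105 introns lay at 96 separate loci, so that a few of them share reads. Of the 105, 32 had no +/+ spliced read and could differ in 1 direction only. Among the 1189 introns with such a read 73 (6.14%) were lower. Without both libraries numbered 1, a choice made after seeing the data, 73 introns were lower and 5 were higher.

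The introns were then split by which site was unannotated. With the donor annotated and the acceptor not, 61 of 383 introns (15.9%) had lower retention and 0 had higher retention. With the acceptor annotated and the donor not, 15 of 467 (3.21%) were lower and 5 were higher. With neither annotated and dinucleotides of the gene's strand, 18 of 173 (10.4%) were lower and 2 were higher. The remaining introns had dinucleotides of the opposite strand (4 of 76 lower), other dinucleotides (5 of 92 lower, 1 higher) or overlapping genes (2 of 39 lower, 1 higher). The median PSI difference was -0.050 for unannotated acceptors, -0.025 for unannotated donors and -0.024 for both. The difference between these kinds was described and not tested. An intron without a +/+ spliced read can be in the table only through K700E/+ reads and could differ in 1 direction only, which applies to 20 of the 61 acceptors called lower, 2 of the 15 donors and 7 of the 18 with neither site annotated. Among introns with a +/+ spliced read, 41 of 358 with an unannotated acceptor (11.5%), 13 of 464 with an unannotated donor (2.8%) and 11 of 164 with neither annotated (6.71%) were lower.

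**Figure D1:**
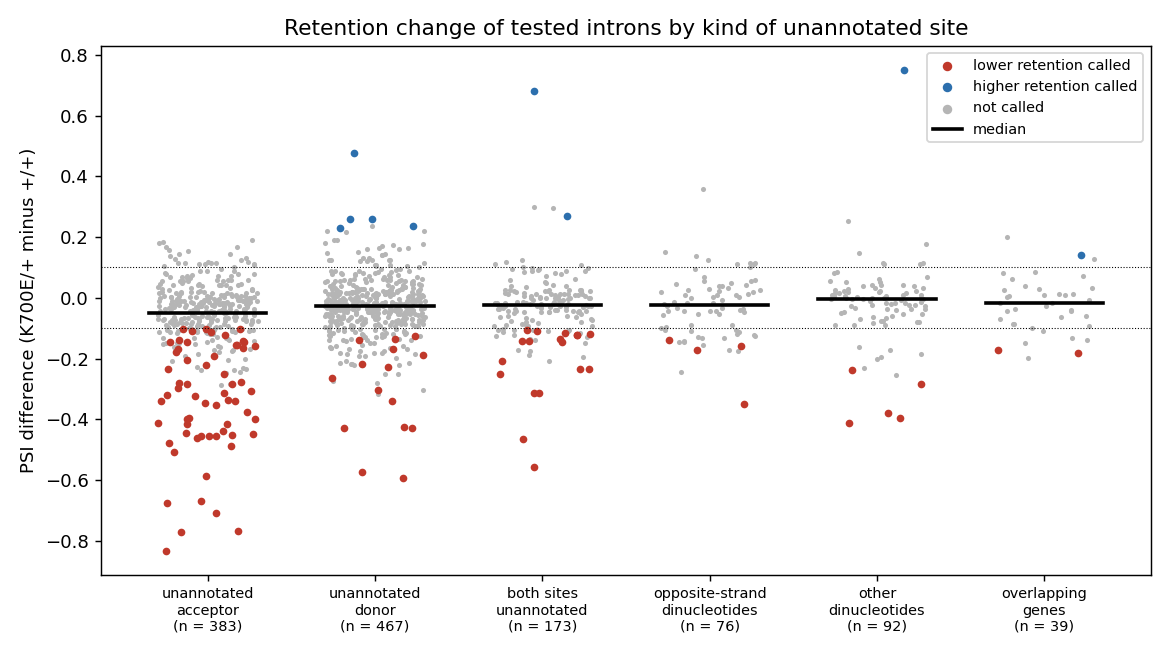
PSI difference (K700E/+ minus +/+) of each of the 1230 tested introns, by kind of unannotated site, with the median as a bar and dotted lines at a difference of 0.10. The 61 introns called lower with an unannotated acceptor reach a difference of -0.832, and 0 of the 383 with such an acceptor were called higher.

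Position relative to the annotated acceptors was taken from the event table alone, as the distance to the nearest annotated acceptor that any event of the same gene lists. Of 29 tested introns whose unannotated acceptor lay 10 to 30 nt upstream of an annotated one, 13 (44.8%) had lower retention, with a median PSI difference of -0.123. Of 36 with an unannotated acceptor under 10 nt away on either side, 1 (2.78%) was lower. The share was 8 of 35 (22.9%) for acceptors 31 to 100 nt upstream, 8 of 46 (17.4%) for those 10 to 100 nt downstream and 26 of 198 (13.1%) for those over 100 nt away. For 39 introns, that of Lig1 among them, no event of the gene listed another annotated acceptor, and 5 (12.8%) were lower. A large distance can likewise mean that a nearer annotated acceptor is in no event. No +/+ spliced read was seen in 6 of the 13, and among the introns of the window with such a read 7 of 23 (30.4%) were lower, with a median PSI difference of -0.094. The corresponding counts were 1 of 36 (2.78%) under 10 nt, 7 of 33 (21.2%) at 31 to 100 nt upstream, 5 of 43 (11.6%) at 10 to 100 nt downstream and 18 of 186 (9.68%) over 100 nt away. Donors in the same upstream window numbered 7, of which 0 were lower, and 1 of 103 donors within 100 nt of an annotated one was lower. All 13 introns called lower in the window are marked complex in the table, and each of the 13 junctions also occurs there in an alternative acceptor event. With boundary reads only 7 were called lower, and without events marked complex 0 remained to be called.

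**Figure D2:**
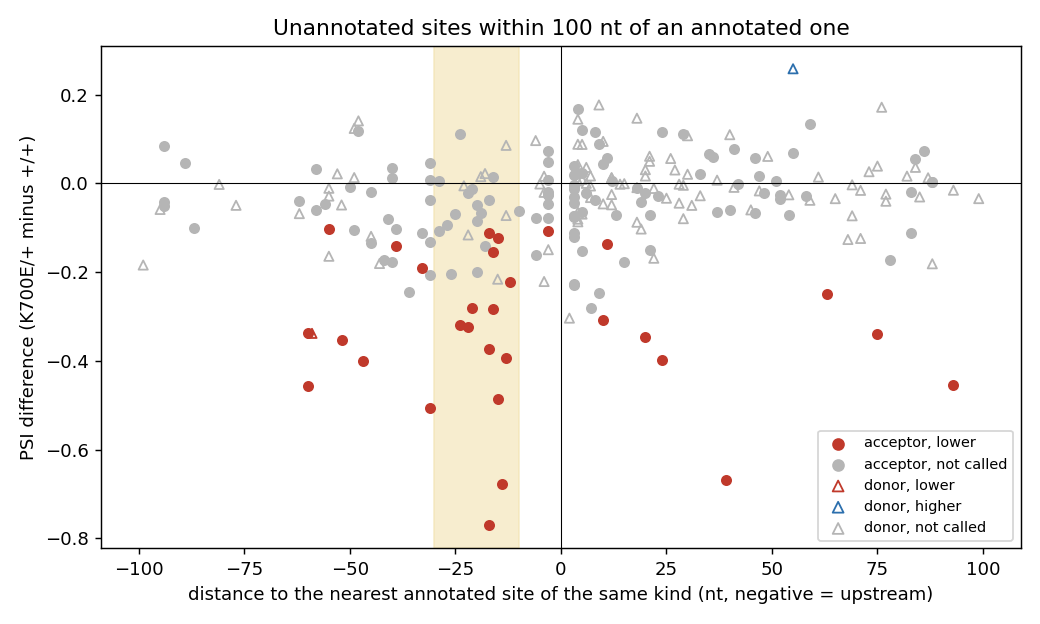
PSI difference (K700E/+ minus +/+) against the distance in nt of the unannotated site to the nearest annotated site of the same kind, for acceptors (filled circles) and donors (open triangles) within 100 nt. The shaded band marks 10 to 30 nt upstream, where 13 of 29 acceptors were called lower.

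Within that window the largest fall was in Zfp512b, a zinc finger gene, at chr2:181228171-181228512 (minus strand, 340 nt, acceptor 17 nt upstream of the annotated one, outside the coding sequence). Splicing at this acceptor gave 33, 30 and 28 reads in the K700E/+ libraries and 0 in each +/+ library. PSI was 0.317, 0.237 and 0.132 in K700E/+, against 1 in every +/+ library (difference -0.771, edgeR adjusted p = 1.37e-09). The genotypes were far apart, and with the floor of 3 counts over the +/+ group the spliced path was at least 26.7-fold higher in K700E/+. Without a +/+ spliced read this intron could differ in 1 direction only, as could each such intron below. Its retained path, with 79, 48 and 22 reads in K700E/+ and 131, 108 and 97 reads in +/+, fell by 1.38 on the log2 scale (SE 0.28, edgeR adjusted p = 0.00156).

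Gga3, which encodes an adaptor of clathrin coats at the Golgi, used an acceptor 14 nt upstream at chr11:115476680-115476912. PSI was 0.078, 0.081 and 0.039 in K700E/+, against 0.720, 0.809 and 0.698 in +/+ (difference -0.677, edgeR adjusted p = 3.64e-09), on 61, 67 and 57 spliced reads against 2, 2 and 4. Here the +/+ libraries already held a few reads spliced at the site, and the spliced path rose by 4.29 ± 0.36 on the log2 scale (SE, edgeR adjusted p = 1.1e-11). Ap5z1, a subunit of the AP-5 adaptor complex, had 10, 11 and 3 spliced reads in K700E/+ and 0 in every +/+ library at an acceptor 15 nt upstream (chr5:142459805-142460114). Its PSI was 0.410, 0.414 and 0.716 in K700E/+, against 1 in every +/+ library (edgeR adjusted p = 1.34e-05), so that library 3 of K700E/+ stayed closest to +/+.

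Red cell genes were among the deepest introns of the window. In Ppox, the mitochondrial enzyme that makes protoporphyrin in the heme pathway, splicing to an acceptor 16 nt upstream (chr1:171105784-171106697) had 60, 82 and 64 reads in K700E/+, against 7, 6 and 7 reads in +/+. PSI was 0.715, 0.658 and 0.670 in K700E/+ and 0.962, 0.968 and 0.965 in +/+ (difference -0.284, edgeR adjusted p = 1.59e-11). A second Ppox intron with an acceptor also 16 nt upstream (chr1:171107845-171107962) had PSI 0.847, 0.738 and 0.798 in K700E/+ and 0.775, 0.744 and 0.821 in +/+, overlapping and not called (edgeR adjusted p = 0.862). The same gene thus held 1 such acceptor with a large difference and 1 without a detectable one. Kel, the endopeptidase of the Kell blood group, had PSI 0.622, 0.617 and 0.528 in K700E/+, against 0.779, 0.695 and 0.761 in +/+ (edgeR adjusted p = 0.000473), over an intron of 2668 nt. The Kel call was lost with limma on logit PSI (adjusted p = 0.123), the adjusted p under its other tests and libraries left out being at most 0.04. Epor, the erythropoietin receptor, had PSI 0.791, 0.791 and 0.825 in K700E/+, against 0.932, 0.941 and 0.904 in +/+ (edgeR adjusted p = 0.0187) at an acceptor 15 nt upstream. The Epor call was lost without libraries 1 or 2 of K700E/+ (0.0553 each as adjusted p), without library 1 of +/+ (0.0692) or without library 2 of +/+ (0.0753). With limma on logit PSI (adjusted p = 0.0627) and with DESeq2 (0.118) the Epor call was lost as well.

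Epor also held the most deeply read canonical intron that was not called, a 650-nt stretch from the same donor to another unannotated acceptor 560 nt downstream. Reads of transcripts spliced at an annotated acceptor may count as retained in this stretch. Its PSI was 0.914, 0.934 and 0.899 in K700E/+ and 0.968, 0.964 and 0.961 in +/+, which did not overlap (edgeR adjusted p = 6.85e-05), but the difference of -0.049 was under the limit of 0.10. The other 2 most deeply read uncalled introns, in Rpl4 and Eef1a1, were 44 and 43 nt long without splice site dinucleotides and had 1 to 3 and 3 to 14 spliced reads per library.

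Others in the window, named after their values were seen, were Tmem179b, Ppp6r2, Patl2, Keap1, Foxm1, Niban3 and Rnf123. Tmem179b, a transmembrane protein gene, had PSI 0.498, 0.563 and 0.496 in K700E/+, against 0.937, 0.879 and 0.922 in +/+ (edgeR adjusted p = 7.02e-08). Keap1, the adaptor that targets NRF2 for degradation, and Foxm1, a transcription factor of the G2/M program, had 5 to 10 spliced reads in each K700E/+ library and 0 in every +/+ library. Rnf123 rested on 1 library, with 5, 1 and 0 spliced reads in K700E/+, and without library 1 of K700E/+ its difference was -0.038 (edgeR adjusted p = 0.379). The Rnf123 call was also lost without libraries 1, 2 or 3 of +/+ (0.0871, 0.0664 and 0.0748). The Patl2 call was lost without libraries 2 or 3 of K700E/+ (adjusted p = 0.115 and 0.126) and libraries 1 or 2 of +/+ (0.107 and 0.0798), and that of Niban3 without library 3 of +/+ (0.0537).

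The largest fall of all was in Lig1, DNA ligase I, which seals Okazaki fragments in replication, at chr7:13020610-13021100 (489 nt, outside the coding sequence). The unannotated acceptor received 21, 22 and 15 reads in the K700E/+ libraries and 0 in each +/+ library, while the retained path had 45, 29 and 14 reads in K700E/+ and 13, 25 and 24 reads in +/+. PSI was 0.232, 0.156 and 0.116 in K700E/+, against 1 in every +/+ library (difference -0.832, edgeR adjusted p = 4.38e-05). With 62 retained reads in all, the 0 spliced reads of +/+ allow a PSI down to 0.744, counting error only. Whole Lig1 expression differed little, by a log2 fold change of -0.13 (edgeR adjusted p = 0.205).

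E2f8, an atypical E2F repressor of the cell cycle, carried the longest of the 10 largest falls, 2439 nt at chr7:48518000-48520439. Its unannotated acceptor lay 39 nt downstream of an annotated one and inside the coding sequence by the table. Reads of transcripts spliced at that annotated acceptor may thus count as retained. PSI was 0.232, 0.229 and 0.156 in K700E/+, against 0.945, 0.822 and 0.854 in +/+ (difference -0.668, edgeR adjusted p = 4.41e-11), on 105, 105 and 120 spliced reads against 1, 4 and 3. The E2f8 gene itself rose by 0.71 on the log2 scale (edgeR adjusted p = 5.59e-05), so here more spliced reads went with more reads of the retained path (984, 971 and 691 in K700E/+, against 538, 575 and 545 in +/+).

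Mta1, a subunit of the NuRD chromatin remodeler, held 3 tested introns. The first (chr12:113090497-113091198) had 19, 15 and 11 spliced reads in K700E/+ and 0 in each +/+ library, with PSI 0.374, 0.378 and 0.489 in K700E/+ against 1 in +/+ (edgeR adjusted p = 2.95e-06). The other 2 overlapped between genotypes, with mean PSI 0.838 ± 0.164 in K700E/+ against 0.932 ± 0.067 in +/+, and 0.288 ± 0.060 in K700E/+ against 0.306 ± 0.010 in +/+ (SD, n = 3 each, edgeR adjusted p = 0.533 and 0.861). The first of these 2 introns rested on 7 spliced reads in K700E/+ and 3 in +/+, and the introns of Mta1 were not tested against each other.

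Of the introns with an unannotated donor, that of Eif3b, a scaffold subunit of the translation initiation factor eIF3, fell the most. It had 11, 11 and 13 spliced reads in K700E/+ and 0 in each +/+ library, and PSI was 0.469, 0.440 and 0.307 in K700E/+ against 1 in every +/+ library (edgeR adjusted p = 9.86e-05). Ppp2r1b, a scaffold of protein phosphatase 2A, had 40, 38 and 31 spliced reads in K700E/+ and 1, 0 and 5 in +/+. Its PSI was 0.298, 0.263 and 0.289 in K700E/+, against 0.926, 1 and 0.638 in +/+ (edgeR adjusted p = 6.2e-05), with more spread among the +/+ libraries. Mast2, a microtubule-associated kinase with neither site annotated, was deeply read, with 27, 37 and 28 spliced reads in K700E/+ against 0 in each +/+ library and mean PSI 0.750 ± 0.049 against 1 (SD, n = 3, edgeR adjusted p = 1.28e-09).

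**Figure D3:**
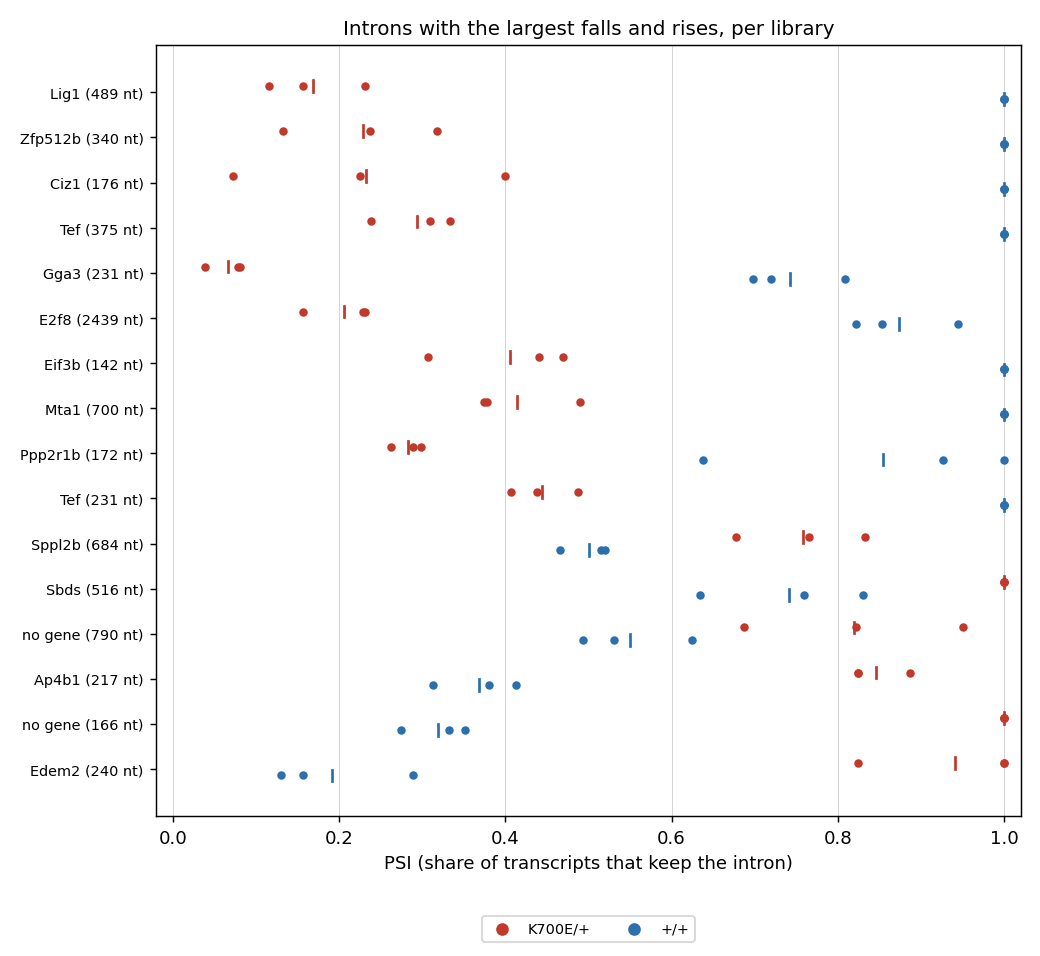
PSI of each library (points) and mean (bar) for the 10 introns with the largest falls and the 6 with the largest rises among called introns whose genotypes do not overlap, K700E/+ above +/+ in each row. In 7 of the 10 falling introns all +/+ libraries sit at 1, so that these could differ in 1 direction only.

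Pairs of introns that leave a short exon between them were looked for, since an unannotated acceptor followed by an unannotated donor outlines an exon the annotation lacks. Among tested introns 32 pairs in 28 genes bounded an unannotated stretch of at most 300 nt. In 6 pairs of 5 genes both introns had lower retention, with Tef counted once for each of its downstream introns. In 7 pairs, that of Mta1 among them, only 1 intron was lower, and in the rest neither was. Of all tested introns 8.54% were lower, and the pairs were not tested against that share. In Ciz1, a nuclear matrix protein of the replication machinery, the stretch was 113 nt at chr2:32264655-32264767. Its upstream intron had PSI 0.225, 0.399 and 0.072 in K700E/+, against 1 in every +/+ library (edgeR adjusted p = 1.43e-07), and its downstream intron 0.476, 0.462 and 0.512 in K700E/+, against 0.848, 1 and 1 in +/+ (3.09e-05). Ciz1 expression fell by 0.91 on the log2 scale (edgeR adjusted p = 1.34e-05).

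Tef, a PAR bZIP transcription factor, had a 96-nt stretch at chr15:81699838-81699933, with PSI 0.238, 0.309 and 0.333 upstream and 0.487, 0.406 and 0.439 downstream in K700E/+, against 1 on both sides in every +/+ library (edgeR adjusted p = 4.38e-11 and 1.21e-07). Reads of these 2 junctions of Tef were seen in K700E/+ alone, 54, 33 and 30 upstream and 25, 23 and 16 downstream. Ddx39b, an RNA helicase of mRNA export, had a 63-nt stretch, with upstream PSI 0.428, 0.277 and 0.301 in K700E/+, against 0.853, 0.675 and 0.913 in +/+ (edgeR adjusted p = 0.000552). Its downstream PSI was 0.335, 0.403 and 0.208 in K700E/+, against 0.782, 0.685 and 0.768 in +/+ (edgeR adjusted p = 0.00561). Unlike Tef, the 3 +/+ libraries of Ddx39b also spliced at these sites, with 1 to 3 reads each.

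The changes were smaller in 2 RNA binding proteins. Rbm39, a coactivator and splicing factor, had a 44-nt stretch with mean upstream PSI 0.801 ± 0.062 in K700E/+ against 0.966 ± 0.033 in +/+, and downstream PSI 0.725 ± 0.097 in K700E/+ against 0.954 ± 0.080 in +/+ (SD, n = 3 each, edgeR adjusted p = 0.0311 and 0.00638). Rbm25, a U1-associated splicing regulator, had a 62-nt stretch. Its upstream PSI was 0.460, 0.227 and 0.272 in K700E/+, against 0.512, 0.438 and 0.515 in +/+, which overlap (edgeR adjusted p = 0.00939). Downstream, Rbm25 had PSI 0.649, 0.520 and 0.636 in K700E/+, against 0.737, 0.733 and 0.738 in +/+ (edgeR adjusted p = 0.0145). Both Rbm25 calls were lost without library 2 of K700E/+ (adjusted p = 0.182 upstream and 0.198 downstream), the upstream one without library 3 of K700E/+ (0.0522) and the downstream one without library 3 of +/+ (0.0536). The upstream Rbm39 call was lost without library 2 of K700E/+ (0.15) and without libraries 1, 2 or 3 of +/+ (0.103, 0.0899 and 0.0606), and the downstream one without library 3 of +/+ (0.0761).

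**Figure D4:**
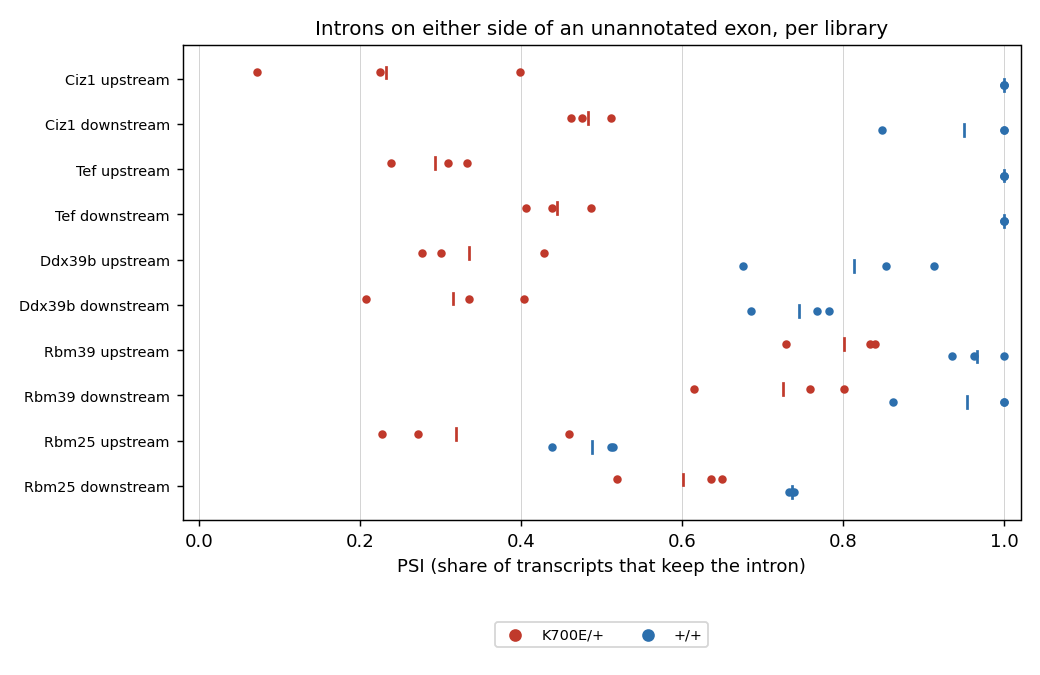
PSI of each library (points) and mean (bar) for the introns upstream and downstream of an unannotated exon in Ciz1, Tef, Ddx39b, Rbm39 and Rbm25, K700E/+ above +/+ in each row (for Tef, 1 of 2 downstream introns). The genotypes are apart in each row except the upstream intron of Rbm25.

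Of the 9 introns with higher retention, 5 had an unannotated donor and 2 had neither site annotated, while 1 had other dinucleotides and 1 lay in overlapping genes. Edem2, of the degradation pathway for misfolded glycoproteins, had PSI 0.825, 1 and 1 in K700E/+, against 0.157, 0.129 and 0.289 in +/+ (difference 0.750, edgeR adjusted p = 9.51e-05), on 1, 0 and 0 spliced reads against 16, 25 and 25, but its bounds carry TA and GG rather than splice site dinucleotides. The Edem2 gene itself fell by 0.74 on the log2 scale (edgeR adjusted p = 0.00348). Ap4b1, a subunit of the AP-4 adaptor complex, had 2, 2 and 1 spliced reads in K700E/+ and 28, 36 and 42 in +/+. Its PSI was 0.825, 0.825 and 0.887 in K700E/+, against 0.413, 0.380 and 0.313 in +/+ (edgeR adjusted p = 0.000184), while the Ap4b1 gene fell by 0.78 on the log2 scale (0.00676). At Ap4b1 the retained path also fell by 1.37 on the log2 scale (SE 0.21, edgeR adjusted p = 0.000153).

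Sbds, required for maturation of the large ribosomal subunit, had 0 spliced reads in each K700E/+ library and 10, 4 and 7 in +/+, so that its unannotated donor was used at least 7.95-fold less in K700E/+ (floor of 3 counts over the group). Its PSI was 1 in every K700E/+ library, against 0.634, 0.830 and 0.759 in +/+ (edgeR adjusted p = 0.00242). Sppl2b, an intramembrane protease, had PSI 0.832, 0.677 and 0.765 in K700E/+, against 0.466, 0.515 and 0.520 in +/+ (edgeR adjusted p = 0.00019). Bccip, a partner of BRCA2, had PSI 0.818, 0.788 and 0.815 in K700E/+, against 0.575, 0.604 and 0.530 in +/+ (edgeR adjusted p = 0.00877, and 0.0733 without library 3 of +/+). Ergic2, a protein of the compartment between endoplasmic reticulum and Golgi, differed by 0.231 (edgeR adjusted p = 0.0371), but the adjusted p was 0.0721 to 0.149 without library 1, 2 or 3 of K700E/+ or library 1 or 2 of +/+. The stretch shared by Slc20a1 and the gene 9830144P21Rik differed by 0.141 on 0 spliced reads in each K700E/+ library and 2, 3 and 3 in +/+, and reads of these overlapping genes may not be assigned to either with certainty.

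The other 2 introns with higher retention lay outside named genes. At chr3:127192028-127192195 there were 0 spliced reads in each K700E/+ library and 8, 11 and 7 in +/+, with PSI 1 in every K700E/+ library and 0.332, 0.351 and 0.274 in +/+ (no gene named, edgeR adjusted p = 0.000734). At chr4:148683265-148684071 the PSI difference was 0.270 (edgeR adjusted p = 0.0135), which was lost without library 1 of K700E/+ (0.154) or library 2 of +/+ (0.0579).

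Each path was also tested on its own against the total gene counts. The spliced path, that is the use of the unannotated site, was higher in K700E/+ in 118 of the 1230 introns (9.59%, against 5.3% of the corresponding paths of all events) and lower in 35 (2.85%, against 3.06%). The retained path was higher in 47 (3.82%, against 4.35% of all events) and lower in 94 (7.64%, against 5.15%; log2 fold change beyond 1, edgeR adjusted p under 0.05). Among the 105 introns with lower retention, the spliced path was higher in 75 and lower in 0, and the retained path was lower in 17 and higher in 1. Their spliced paths held 8167 reads in K700E/+ and 2532 reads in +/+, and their retained paths 99476 reads in K700E/+ and 116985 reads in +/+. Among the 9 with higher retention the spliced path was lower in 8. The direction of each path follows largely from the calls, which rest on the same reads, and is no added support.

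All K700E/+ libraries lay below all +/+ libraries in PSI in 250 of the 1230 tested introns (20.3%), against 17% of all events. This order held in 102 of the 105 introns called lower, which is no added support, since the calls rest on the same libraries. In 55 of the 105 the mean PSI of +/+ was above 0.95, and in 32 no +/+ library had a spliced read. An event enters the table only if both paths were assembled, so the 41 tested introns without a +/+ spliced read entered through K700E/+ reads and had to differ in that direction. Of the other 1189 introns 73 (6.14%) were lower. The share was 4.13% of all events and 4.67% of retained introns with annotated sites, neither limited to events with a +/+ spliced read. The 6 tested introns without a K700E/+ spliced read entered through +/+ reads.

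**Figure D5:**
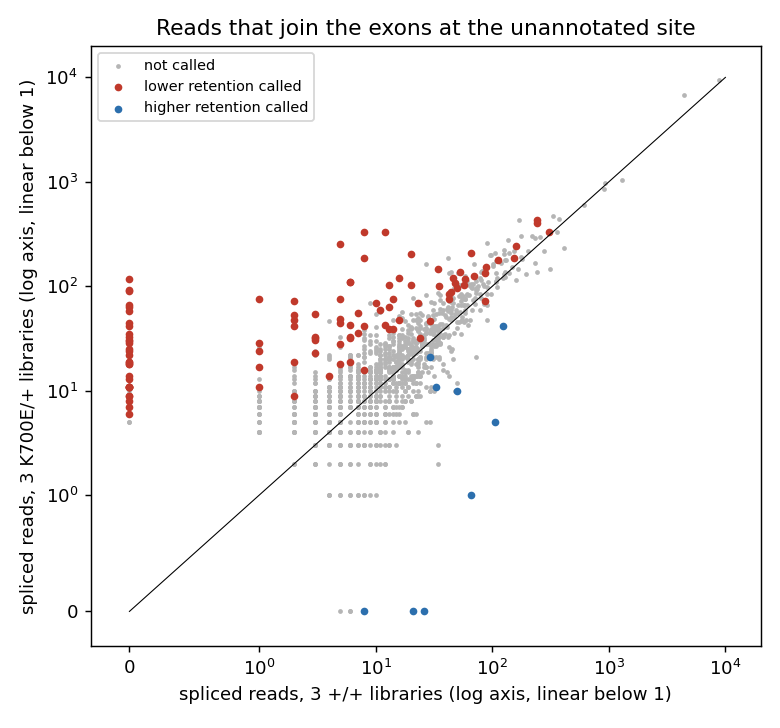
Spliced reads of each of the 1230 tested introns, summed over the 3 K700E/+ libraries (vertical) and the 3 +/+ libraries (horizontal), on log axes that are linear below 1, with the line of equal counts. Of the 105 introns called lower in retention, 32 have 0 reads in +/+, and 3 of the 9 called higher have 0 reads in K700E/+.

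Groups of genes that host these introns were counted from lists written by hand and from the DNA repair list that accompanies the study. Of all 1230 tested introns 8.54% were lower and 0.732% were higher, which is the background of the intron counts of every list. Introns of the same gene were counted separately. Among splicing regulators, 10 of 32 tested introns in 19 genes had lower retention and 0 had higher retention, with a median PSI difference of -0.039. Luc7l2, a U1 snRNP protein, contributed 3 introns, with mean PSI 0.705 ± 0.052 in K700E/+ against 0.922 ± 0.030 in +/+ at an unannotated donor (SD, n = 3 each, edgeR adjusted p = 0.00086). At another Luc7l2 intron, with an unannotated acceptor, PSI was 0.802, 0.830 and 0.865 in K700E/+, against 1, 0.974 and 1 in +/+ (edgeR adjusted p = 1.23e-05). Srsf5, an SR protein, had PSI 0.615, 0.571 and 0.599 in K700E/+, against 0.768, 0.767 and 0.812 in +/+ (edgeR adjusted p = 0.000115), where the spliced path differed by 0.50 ± 0.23 and the retained path by -0.82 ± 0.23 on the log2 scale (SE, adjusted p = 0.135 and 0.0126).

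Among genes of U2 snRNP and acceptor recognition, with a median PSI difference of 0.026 over 5 tested introns, 1 intron was lower, that of U2af2, the large subunit that binds the polypyrimidine tract. Its PSI was 0.413, 0.314 and 0.403 in K700E/+, against 0.577, 0.537 and 0.524 in +/+ (edgeR adjusted p = 0.0384). The U2af2 call was lost without libraries 2 or 3 of K700E/+ (0.221 and 0.0568) and without libraries 1, 2 or 3 of +/+ (0.0943, 0.0882 and 0.0837). By expression, 10 of 27 tested genes of this list were higher in K700E/+ and 1 was lower (edgeR adjusted p under 0.05), none by more than a log2 fold change of 1. At this threshold 21.3% of all 12547 tested genes were higher and 23.1% were lower, which is also the background of the expression counts of the lists that follow. Snrpa1, a U2 snRNP protein, had the largest difference, 0.51 ± 0.06 on the log2 scale (SE, edgeR adjusted p = 0.000199), and Puf60, a factor related to U2af2, fell by 0.24 (0.00797).

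In nonsense-mediated decay, which removes transcripts with premature stop codons, 1 of 5 tested introns was lower, in Upf1, the helicase of the pathway, and the median PSI difference was -0.027. Its PSI was 0.780, 0.746 and 0.791 in K700E/+, against 0.872, 0.853 and 0.901 in +/+ (difference -0.103, edgeR adjusted p = 0.0106), lost without library 2 of K700E/+ (0.074) or library 3 of +/+ (0.0743). By expression, 5 of 17 tested genes of the list were higher in K700E/+ (Upf1, Smg1, Smg9, Casc3 and Dhx34) and 3 were lower (Upf2, Upf3a and Smg5; edgeR adjusted p under 0.05). Of the 105 introns with lower retention, 71 had a length that is not a multiple of 3, against 821 of the 1230 tested, and 27 lay in coding sequence by the table, against 358 of the 1230.

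Among DNA replication and checkpoint genes 4 of 12 tested introns were lower and 0 were higher, in Lig1, Ciz1 and Rad9b, with a median PSI difference of -0.039. Rad9b, a paralog of the checkpoint clamp subunit RAD9, had PSI 0.253, 0.321 and 0.153 in K700E/+, against 0.666, 0.765 and 0.606 in +/+ (edgeR adjusted p = 0.0073, and 0.0559 without library 2 of +/+). In the DNA repair list 11 of 79 tested introns in 66 genes were lower and 1, that of Bccip, was higher, with a median PSI difference of -0.049. Hpf1, the cofactor of PARP1 for serine ADP-ribosylation, had PSI 0.601, 0.494 and 0.483 in K700E/+, against 0.758, 0.749 and 0.771 in +/+ (edgeR adjusted p = 0.000515).

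Among heme, iron and red cell genes 2 of 26 tested introns were lower, those of Ppox and Epor (Kel is not on this list), and the median PSI difference was -0.014. Among chromatin and transcription genes 2 of 10 were lower, those of Mta1 and Kmt5c, with a median PSI difference of -0.032. Kmt5c, a methyltransferase of histone H4 lysine 20, had PSI 0.880, 0.841 and 0.828 in K700E/+, against 0.972, 0.983 and 0.967 in +/+ (edgeR adjusted p = 0.00133). By expression (edgeR adjusted p under 0.05, against 21.3% higher and 23.1% lower of all genes), 9 of 58 splicing regulators were higher in K700E/+ and 8 lower, 23 of 61 replication and checkpoint genes higher and 5 lower, 22 of 54 red cell genes higher and 7 lower, 10 of 42 chromatin genes higher and 8 lower, and 146 of 517 DNA repair genes higher and 94 lower. No list was tested against other genes.

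The deepest called introns also included 1 on an unplaced scaffold, in ENSMUSG00000095041, with PSI 0.569, 0.657 and 0.675 in K700E/+, against 0.699, 0.801 and 0.771 in +/+ (edgeR adjusted p = 0.00664). This call was lost without library 1 of K700E/+ (0.0967) or library 2 of +/+ (0.0627), and near-identical copies of such scaffold genes make the assignment of reads uncertain.

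The median length was 448 nt for the 105 introns with lower retention and 304 nt for all tested introns, and 7 of the 133 introns up to 100 nt long (5.26%) were lower. Of the 105 introns 85 were marked complex, and the share called lower was 85 of 820 (10.4%) with the mark and 20 of 410 (4.88%) without it, against 5.22% and 2.48% of all events. The higher share with the mark was thus seen in these introns and in all events.

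Expression of the host genes was read from the gene counts. Of 874 tested host genes 15 (1.72%) were higher in K700E/+ and 23 (2.63%) were lower by a log2 fold change beyond 1, against 4.07% higher and 6.24% lower of 12547 genes. Of the 84 genes with a lower intron 2 were higher, Soat2 and Acp5, and 3 were lower, Patl2, Ddt and Man2b1 (named after their values were seen), with a median log2 fold change of -0.06 against -0.01 for all genes. Patl2 had 8.34 ± 1.37 CPM in K700E/+ and 24.7 ± 1.65 CPM in +/+ (SD, n = 3 each, edgeR adjusted p = 2.18e-05), and Man2b1, lysosomal alpha-mannosidase, 110.2 ± 3.66 CPM in K700E/+ and 258.2 ± 38.4 CPM in +/+. Acp5, tartrate-resistant acid phosphatase, had 149.2 ± 10.3 CPM in K700E/+ and 66.6 ± 3.46 CPM in +/+. The difference of Soat2 was at the limit, with 1.05 on the log2 scale and 0.94 without library 2 of K700E/+ or library 1 of +/+.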

How the data were processed

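RNA of 6 libraries, 3 per genotype at 24 h, had been sequenced as 75-nt paired reads. The authors deposited gene counts without normalization, and the submitters' processing notes name STAR 2.7.9, DESeq2 1.30.1 and GRCm39. They deposited 19323 splicing events, assembled with KisSplice and located on the reference, and for each the read counts of both paths in 2 read files per library, which were summed here. Deposited PSI values were used for comparison only, and columns of the authors' own comparisons (changes in PSI, p-values) were not used. The recomputed PSI had a correlation of 0.980 with the deposited one over 7367 values of these introns, and of 0.999 when the retained path was counted in a balanced way (from the smaller of its 2 boundary counts).

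The path counts of the 18038 events that reached 10 reads in each library were fitted in R 4.3.3 with edgeR 4.0.16 (library effects, a path effect and its interaction with genotype, quasi-likelihood F test, Benjamini-Hochberg adjustment), and only rows of these introns are given. Single paths and genes used TMM factors of the gene table, and limma 3.58.1 and DESeq2 1.42.0 served as alternatives. A fold against a genotype without reads used a floor of 3 counts over the group. Intervals and floors cover counting error only. Dinucleotides and annotated sites are those of the event table. Steps were tested on simulated data.

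The introns and lists were chosen with earlier results of these data known. Named introns are the 10 largest falls and 6 largest rises among called introns whose genotypes do not overlap, the 5 called with most reads, up to 4 called per list by adjusted p, the 3 with most reads not called, and tested introns of Lig1, Mta1 and Ap5z1. Macrod1 and Commd4, also listed for naming, had no such intron. Deviations from the genotype mean of same-numbered libraries correlated at 0.627, 0.484 and 0.48 over 8771 genes. Over the path ratios of 11537 events they correlated at 0.145, 0.0657 and 0.0956. Differently numbered libraries reached at most 0.249 over genes and 0.0454 over path ratios. The numbers were taken to pair the libraries only in an alternative fit with a replicate block (a term per library number), and the main fits used no block. No 2 libraries of a genotype agreed within sampling noise (chi-square per degree of freedom 8.03 to 35.4 over genes), and 0 columns of per-sample values were left unused.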

Additional observations from a re-analysis of the deposited data

How the results depend on the processing

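The 105 introns with lower and 9 with higher retention became 111 and 9 at 5 reads, 97 and 7 at 20 reads, 111 and 10 with 1 read over all libraries, 95 and 7 with the balanced count, 79 and 8 with limma, and 113 and 13 under the replicate block. The block kept 104 of the 105 and all 9, and gave 122 higher and 36 lower spliced paths, 47 higher and 94 lower retained paths, and 15 higher and 23 lower host genes. Larger moves were 67 lower at a PSI difference over 0.20, 65 lower with DESeq2, 5 higher with boundary reads only (73 lower), and 19 lower and 4 higher without complex, paralog and SNP events, where only 394 of the introns were tested. Without both libraries numbered 1, chosen after seeing the data, there were 73 lower and 5 higher. In these fits and with 1 library left out, no intron with lower retention turned to higher. Leaving out 1 library gave 79 to 91 lower and 7 to 10 higher introns, 94 to 107 higher and 22 to 38 lower spliced paths, 40 to 49 higher and 79 to 109 lower retained paths, and 14 to 17 higher and 20 to 31 lower host genes. The 35 lower spliced paths became 23 without library 1 of K700E/+ and 22 without library 2 or 3 of +/+. The causes were not tested. Of 47 introns called and named here, 13 lost the call with DESeq2, 13 with limma, 14 without both libraries numbered 1 and 4 to 9 with 1 library left out. The calls of Epor, U2af2, Upf1, Patl2, Rnf123, Ergic2, ENSMUSG00000095041 and the chr4 intron outside named genes were lost with DESeq2 and with limma. The same held for the upstream and downstream introns of Rbm25 and of Rbm39. Kel lost its call with limma alone (adjusted p = 0.123) and Rad9b with DESeq2 alone (0.0626). Unannotated acceptors with lower retention numbered 40 with boundary reads only, 39 with DESeq2 and 7 without complex events, against 61, and those called higher numbered 1 with the balanced count, under the block and without library 1 or 3 of +/+, against 0. Depth limits introns with few spliced reads, such as Rnf123 and Patl2, and 129 of the 1359 introns were too shallow to test.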
